A study of Mus musculus with 12 samples.

Results

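The deposited gene table assigns each row 1 of 4 types, and 520 of its 31208 rows are typed as long noncoding RNA (lncRNA): 353 as Known_lncRNA_gene and 167 as Novel_lncRNA_gene. All rows of both types were taken, whatever their values. Every one of the 353 known loci carries a database identifier, 237 of them an Ensembl gene identifier and 116 a NONCODE identifier alone, whereas none of the 167 loci of the other type carries one, and these are called unmatched loci here. The loci are named by gene symbol where the table gives one, and otherwise by the table's own ONT number. A position on GRCm38 could be read from GENCODE mouse release 21 for 236 of the 520 loci, and the other 284 were described by their counts and by the database texts the table attaches to them.

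Long noncoding RNAs are transcripts that are spliced and polyadenylated like messenger RNAs but have no known protein product. Some are only carriers: small nucleolar RNAs (snoRNAs), which guide chemical modification of ribosomal RNA, and microRNAs (miRNAs), which repress messenger RNAs through their seed, are cut from the introns or exons of such hosts. Others start from the promoter of a protein-coding gene in the opposite direction, or lie antisense to it, and several regulate a neighbouring gene on the same chromosome. In the brain many are restricted to neurons or glia and respond to neuronal activity or hypoxia.

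Brain RNA of 12 C57BL/6 mice, 8 weeks old, was read as full-length cDNA on nanopores. Ischemia was produced by middle cerebral artery occlusion (MCAO), and the brains of both ischemic groups were taken after 6 h. The vehicle-treated group of 4 mice received sterile saline into the cerebral ventricle 24 h before MCAO. The lactate-treated group of 4 mice received lactate (2 μL of 100 mmol/L, named as D-lactate in the methods for this experiment) at the same time point, and 4 sham mice were not ischemic; whether they were injected is not stated in the sources used here. All mice were wild type, and lactate was given only to ischemic mice, so lactate without ischemia cannot be read from these groups. Labels give each group 4 mice and do not say whether several brains were pooled.

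Total counts ranged from 6815920 to 10677224 per mouse, so that 3 counts, taken as the limit of detection, correspond to between 0.281 and 0.440 CPM, the count scaled to a common total in every mouse. The defining markers of brain cells were present, with 4 neuronal markers summing to 3828 to 4167 CPM in the sham mice, 3076 to 4811 CPM (median 3278) in the vehicle-treated and 2986 to 3865 CPM (median 3723) in the lactate-treated mice, and 4 oligodendrocyte markers to 6533 to 10419 CPM, 5187 to 9707 CPM and 8185 to 9266 CPM in the same order. Vehicle mouse 1 stood apart on the second principal component of the 18134 rows analysed, and its 4 choroid plexus markers summed to 1835 CPM against a median of 13.5 CPM over the vehicle mice. Neutrophil markers summed to 0.892 to 2.24 CPM in the sham mice, 7.92 to 66.0 CPM in the vehicle-treated mice and 15.2 to 36.3 CPM in the lactate-treated mice, and microglial markers to 106 to 119 CPM, 61.9 to 88.1 CPM and 75.5 to 86.7 CPM. Red cell markers summed to 559 to 631 CPM in sham, 332 to 499 CPM in vehicle-treated and 375 to 498 CPM in lactate-treated mice, endothelial markers to 73.0 to 84.1 CPM, 51.4 to 79.9 CPM and 50.9 to 69.8 CPM, and choroid plexus markers in sham and lactate-treated mice to 1.22 to 4.35 CPM and 9.46 to 18.4 CPM. The part of these cell types in the results on the loci was not tested, and in whole tissue fewer cells of a type and less RNA per cell cannot be told apart.

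The sequences that the results turn on are the promoters of 4 snoRNA hosts that were upregulated in vehicle-treated mice, and the mature miRNAs carried by hosts that moved in different directions. RefSeq windows on GRCm38.p6 run from 250 bases before to 50 bases after a start site, and 176 of the 237 loci with an Ensembl identifier could be matched to such a window by symbol. Below, capitals mark the core letters of the hypoxia response element, ACGTG or GCGTG on either strand, and overlapping matches are merged. The windows lie at chr19:8723237-8723536 on the plus strand (Snhg1), chr9:88522848-88523147 on the minus strand (Snhg5), chr11:6528711-6529010 on the minus strand (Snhg15) and chr11:62602627-62602926 on the plus strand (2410006H16Rik).
Snhg1: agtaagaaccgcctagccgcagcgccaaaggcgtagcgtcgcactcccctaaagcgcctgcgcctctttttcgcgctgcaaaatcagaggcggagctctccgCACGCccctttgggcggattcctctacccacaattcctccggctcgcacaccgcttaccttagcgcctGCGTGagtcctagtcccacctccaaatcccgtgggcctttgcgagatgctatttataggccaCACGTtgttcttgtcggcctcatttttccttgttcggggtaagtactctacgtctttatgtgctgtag
Snhg5: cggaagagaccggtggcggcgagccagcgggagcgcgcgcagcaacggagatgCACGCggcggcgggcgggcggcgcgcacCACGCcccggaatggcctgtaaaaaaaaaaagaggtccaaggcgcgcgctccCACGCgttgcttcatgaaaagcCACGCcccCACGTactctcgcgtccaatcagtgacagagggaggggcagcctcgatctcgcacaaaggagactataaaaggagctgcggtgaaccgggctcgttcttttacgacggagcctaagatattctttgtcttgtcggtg
Snhg15: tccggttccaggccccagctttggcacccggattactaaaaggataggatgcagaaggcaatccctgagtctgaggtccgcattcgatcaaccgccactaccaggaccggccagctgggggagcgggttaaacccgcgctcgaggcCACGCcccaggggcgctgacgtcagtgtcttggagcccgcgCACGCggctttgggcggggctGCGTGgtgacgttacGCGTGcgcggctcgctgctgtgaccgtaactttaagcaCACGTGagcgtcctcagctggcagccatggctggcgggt
2410006H16Rik: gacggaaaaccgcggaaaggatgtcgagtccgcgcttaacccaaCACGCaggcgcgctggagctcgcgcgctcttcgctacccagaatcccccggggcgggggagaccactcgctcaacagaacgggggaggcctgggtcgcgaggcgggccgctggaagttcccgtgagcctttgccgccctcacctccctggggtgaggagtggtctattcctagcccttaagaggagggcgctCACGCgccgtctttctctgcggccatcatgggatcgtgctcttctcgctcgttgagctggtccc

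The Snhg1 window holds 3 matches, at 148, 80 and 18 bases before the start site, the Snhg5 window 5, the Snhg15 window 6, of which 2 overlap in a single palindrome, and the 2410006H16Rik window 2. Snhg15 also holds the core of the cyclic AMP response element, ACGTCA on either strand, with 3 matches of which 2 overlap. Of the 18 snoRNA hosts matched to a window, 14 hold the hypoxia response core, called or not. These letters are common: 43.8% of all 32851 windows hold a hypoxia response core and 7.51% the cyclic AMP core.

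For the miRNA hosts, the mature sequences follow with the seed, bases 2 to 8, in capitals. The miR-9 sequences are shown because 3 of the known loci carry an identical copy each (Mir9-1 on chromosome 3, Mir9-2 on chromosome 13 and Mir9-3 on chromosome 7), and miR-132-3p and miR-212-3p because they share 1 seed and 1 host.
mmu-miR-9-5p: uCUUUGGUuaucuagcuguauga
mmu-miR-9-3p: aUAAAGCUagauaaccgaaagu
mmu-miR-132-3p: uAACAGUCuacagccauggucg
mmu-miR-212-3p: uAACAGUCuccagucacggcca

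Both types were mostly low. The median locus reached 2.07 CPM over the 12 mice, 2.44 CPM for the known and 1.495 CPM for the unmatched loci, and 93 of the 520 loci reached 10 CPM on average, 68 known (19.3% of that type) and 25 unmatched (15.0%). More than 3 counts in every mouse were found for 254 known loci (72.0%) and 101 unmatched loci (60.5%). Among the loci with at least 1 CPM in sham mice, the median coefficient of variation over the 4 sham mice was 20.7% for 274 known and 23.3% for 106 unmatched loci. CPM here is a share of a mouse's reads and is not divided by transcript length, and reads under 500 bases were removed by the authors, so the order of loci is an order of long reads and not of molecules per length.

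A few loci held most of the reads. The 3 highest known loci, Gas5 (mean 1768 CPM), Rian (1052 CPM) and Meg3 (771 CPM), took 52.4% of the reads of the known type, and ONT.14508 (2245 CPM) alone took 55.3% of those of the unmatched type. Gas5 is a snoRNA host known from growth arrest, and Rian and Meg3 are maternally expressed imprinted transcripts of the Dlk1-Dio3 region. Pantr1 (438 CPM), which lies beside the neuronal transcription factor gene Pou3f3, ONT.18704 (165 CPM), Zfas1 (177 CPM), 2410006H16Rik (87.8 CPM), Snhg1 (79.4 CPM), 1500004A13Rik (69.8 CPM) and Snhg6 (65.2 CPM) completed the 10 highest known loci, of which 6 contain annotated snoRNAs. Of the unmatched type, ONT.4290 (333 CPM), ONT.2965 (250.2 CPM), ONT.10366 (183 CPM), ONT.5263 (83.7 CPM), ONT.11477 (85.96 CPM), ONT.18357 (77.6 CPM), ONT.16604 (74.2 CPM), ONT.21565 (62.4 CPM) and ONT.10646 (59.2 CPM) followed.

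Summed over all 520 loci, the level was 10611 ± 366 CPM (SD, n = 4) in sham, 11081 ± 800.1 CPM in vehicle-treated and 11067 ± 319 CPM in lactate-treated mice. The known loci summed to 7407, 6594, 6782 and 6812 CPM in the sham mice, 6830, 6960, 7373 and 7421 CPM in the vehicle mice and 5867, 6865, 6619 and 6778 CPM in the lactate mice, and the groups overlapped. Unmatched loci summed to 3712 ± 544 CPM in sham, 3935 ± 573 CPM in vehicle-treated and 4535 ± 293 CPM in lactate-treated mice. Without ONT.14508 the unmatched sums were 1734 ± 46.5, 1707 ± 248 and 2006 ± 181 CPM, and 3 of the 4 lactate mice lay above every sham mouse but the range of the vehicle mice, 1509 to 2069 CPM, reached into that of the lactate mice, 1768 to 2204 CPM.

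**Figure D1:**
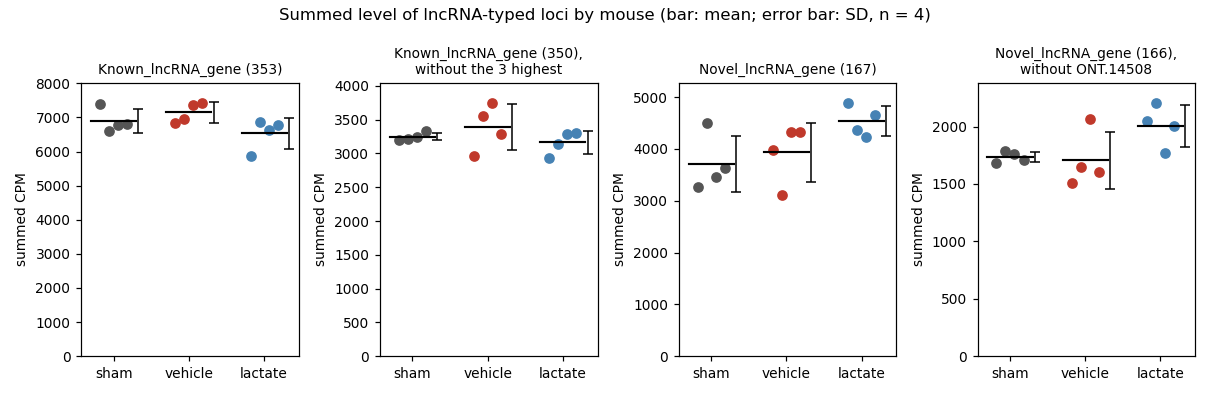
Summed CPM per mouse for each locus type, with and without the loci that hold most reads; points are mice, horizontal bars group means and error bars SD (n = 4). The known sums overlapped between groups, and the unmatched sums without ONT.14508 averaged 1734 CPM in sham and 2006 CPM in lactate-treated mice.

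To ask which lncRNA loci responded to ischemia, vehicle-treated ischemic mice were compared with sham mice. A locus is called upregulated or downregulated here at an unadjusted p under 0.05 and a change of 1.5-fold or more in edgeR's quasi-likelihood test, and calls with a Benjamini-Hochberg adjusted p under 0.05 over all tested rows are given beside them. The error after each log2 fold change is its SE. Of the 387 loci with at least 1 CPM in at least 4 of the 8 mice, 23 were upregulated (5.94%, against a background of 6.5% of all 17019 rows tested) and 26 downregulated (6.72%, against 3.01%). Rows typed Known_gene had 4.97% upregulated and 2.76% downregulated, and rows typed New_gene 12.4% and 3.58%. With adjusted p, 7 loci were upregulated (background 1.29%) and 2 downregulated (background 0.182%). The known type gave 16 upregulated and 19 downregulated of 276 loci and the unmatched type 7 and 7 of 111, and the median log2 fold change was -0.04 over the known and -0.02 over the unmatched loci, beside 0.00 over all rows tested.

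In the lactate-treated ischemic mice against sham, 24 of 387 tested loci were upregulated (6.20%, background 11.9% of 17262 rows) and 44 downregulated (11.4%, background 5.65%). With adjusted p, 14 were upregulated (background 7.88%) and 20 downregulated (background 2.52%). Known loci contributed 14 upregulated and 29 downregulated of 278, and unmatched loci 10 and 15 of 109. Among the other types of the table, 33.7% of the 3708 tested rows typed New_gene were upregulated, while rows typed Known_gene had 5.87% upregulated and 5.76% downregulated. The median log2 fold change was -0.19 over the known loci, -0.09 over the unmatched loci, -0.06 over the Known_gene rows and 0.25 over the New_gene rows. A test of the difference between the types was not run, since the loci of a type are not replicates of a condition. Both comparisons share the sham mice and are given side by side only.

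**Figure D2:**
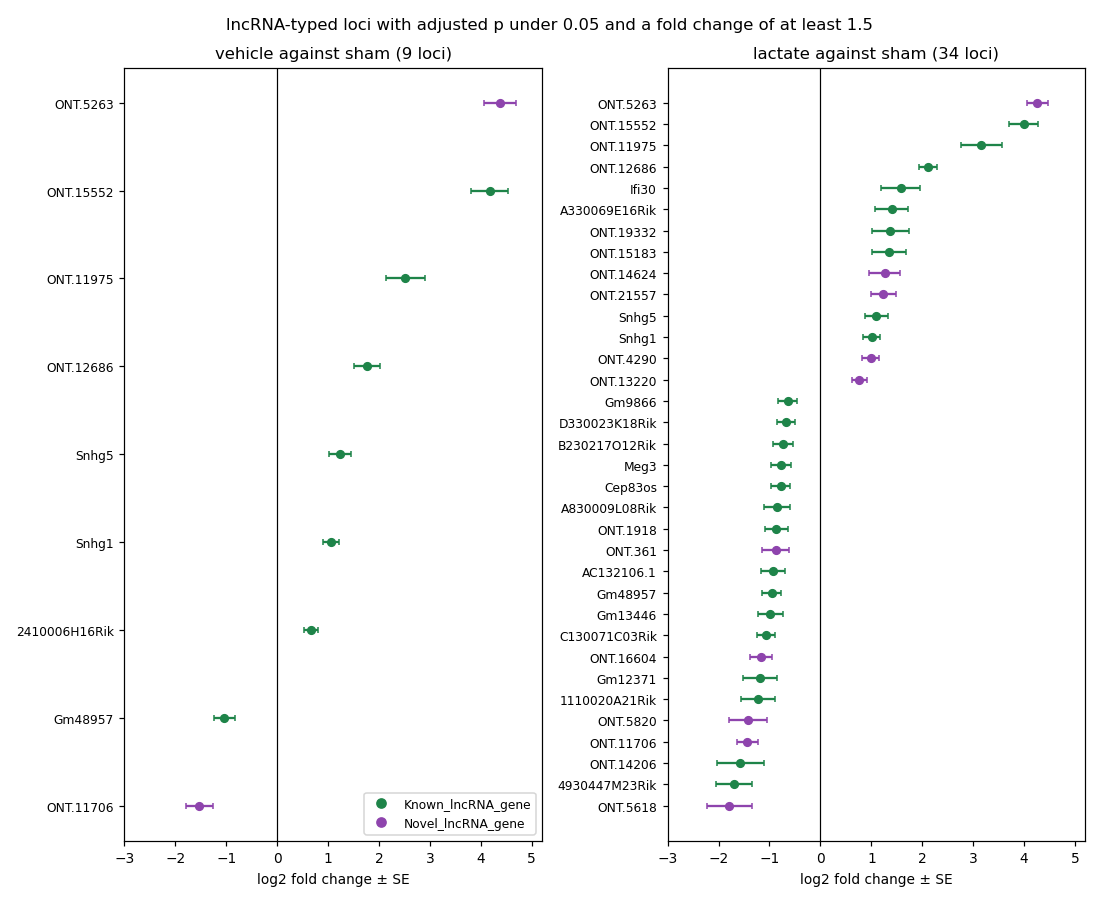
Log2 fold change with its standard error for each lncRNA-typed locus that passed the adjusted p and the fold limit against sham, for vehicle-treated mice (9 loci, left) and lactate-treated mice (34 loci, right); colour marks the locus type. ONT.5263 and ONT.15552 lie highest in both panels, at 4.38 and 4.17 with vehicle.

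Loci that contain snoRNAs were measured at higher levels in ischemic brains for some members and not for others. GENCODE places at least 1 snoRNA or small Cajal body RNA on the same strand within 20 of the known loci, all of which were tested. In vehicle-treated mice 4 of the 20 were upregulated, Snhg1, Snhg5, Snhg15 and 2410006H16Rik, and 1, Rab26os, was downregulated (background 6.5% and 3.01%), with a median log2 fold change of 0.22 over the 20 loci. In lactate-treated mice Snhg1 and Snhg5 were upregulated and none of the 20 was downregulated (background 11.9% and 5.65%). The 2 upregulated loci, 10%, lie under the share of all rows and above the 5.87% of Known_gene rows. The median log2 fold change was 0.26 beside -0.03 over all rows tested. Adjusted p and the fold limit were both passed by Snhg1, Snhg5 and 2410006H16Rik in the first comparison and by Snhg1 and Snhg5 in the second.

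Snhg1 (chr19:8723475-8726443, plus strand) carries 8 annotated snoRNAs, Snord22 among them. Its level was 48.8, 48.6, 47.1 and 46.4 CPM in the 4 sham mice, 70.2, 101, 111 and 105 CPM in the vehicle-treated mice and 66.5, 122, 82.4 and 104 CPM in the lactate-treated mice. Every ischemic mouse lay above every sham mouse, and vehicle mouse 1 and lactate mouse 1 were the lowest of their groups. The log2 fold change was 1.05 ± 0.16 (SE, adjusted p = 0.00373) with vehicle and 1.00 ± 0.16 (adjusted p = 0.00184) with lactate, and -0.06 ± 0.20 (adjusted p = 0.947) between the ischemic groups. The gene on the other side of its promoter, Slc3a2, the heavy chain of several amino acid transporters, starts 106 bases away on the opposite strand. Slc3a2 was at 64.97 ± 10.3 CPM in sham, 88.96 ± 13.3 CPM in vehicle-treated and 104 ± 10.4 CPM in lactate-treated mice (SD, n = 4), with log2 fold changes of 0.49 ± 0.16 (adjusted p = 0.195) and 0.70 ± 0.13 (adjusted p = 0.0048). Wdr74 on its other side had log2 fold changes of 0.16 ± 0.16 and 0.16 ± 0.13 and was not called.

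Snhg5 (chr9:88521050-88522929, minus strand), which carries Snord50a and Snord50b, had 7.38, 6.24, 5.98 and 9.25 CPM in sham, 14.7, 14.1, 21.5 and 15.8 CPM in vehicle-treated and 9.47, 15.4, 17.3 and 18.2 CPM in lactate-treated mice. Every ischemic mouse lay above every sham mouse, although lactate mouse 1 came close to the highest sham mouse. Log2 fold changes were 1.23 ± 0.22 (adjusted p = 0.0133) and 1.09 ± 0.22 (adjusted p = 0.00756), and the neighbouring coding genes Syncrip and Zfp949 were not called in either comparison. For 2410006H16Rik (chr11:62602877-62604807, plus strand), the host of Snord49a, Snord49b and Snord65, the sham mice had 69.1, 70.6, 73.3 and 56.7 CPM, the vehicle mice 94.6, 92.7, 115 and 114 CPM and the lactate mice 76.8, 110.2, 91.6 and 89.4 CPM. Its groups did not overlap in either comparison with sham, and the log2 fold change was 0.66 ± 0.14 (adjusted p = 0.035) with vehicle and 0.48 ± 0.13 (adjusted p = 0.0273) with lactate, the latter under the fold limit.

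Snhg15 (chr11:6525591-6528760, minus strand), the host of Snora9 and named after its values were seen, was lower in level, with 3.30, 4.12, 2.85 and 4.07 CPM in sham, 4.12, 5.57, 10.2 and 8.36 CPM in vehicle-treated and 3.11, 7.07, 5.27 and 4.06 CPM in lactate-treated mice. Vehicle mice 2, 3 and 4 lay above every sham mouse, vehicle mouse 1 lay just under the highest sham mouse, and the lactate mice overlapped with sham. Its log2 fold change with vehicle was 0.99 ± 0.30 with an unadjusted p of 0.00608 in edgeR and an adjusted p of 0.164. Rab26os, the host of Snord60 and antisense to the vesicle GTPase gene Rab26, had 11.7, 9.14, 7.47 and 10.98 CPM in sham, 5.06, 5.70, 6.97 and 6.60 CPM in vehicle-treated and 8.52, 6.83, 10.2 and 14.1 CPM in lactate-treated mice. It was downregulated with vehicle (-0.66 ± 0.22, adjusted p = 0.198) and upregulated in lactate-treated against vehicle-treated mice (0.69 ± 0.25, adjusted p = 0.511), and neither adjusted p passed.

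Several other hosts were not called, among them the 3 with the most reads, Gas5, Rian and Zfas1. Gas5, the host of Snord47, Snord78 and Snord80 among others, had 1712, 1709, 1277 and 1677 CPM in sham, 1778, 1586, 1871 and 2106 CPM in vehicle-treated and 1753, 2091, 1859.6 and 1797 CPM in lactate-treated mice. Each lactate mouse lay above each sham mouse, but the log2 fold change of 0.26 ± 0.11 (adjusted p = 0.123) was under the fold limit, and sham mouse 3 was the lowest of the 12. Zfas1, the host of Snord12, had log2 fold changes of 0.21 ± 0.14 and 0.21 ± 0.12, Snhg12 0.15 ± 0.15 and 0.26 ± 0.12, Snhg6 0.17 ± 0.17 and 0.18 ± 0.12, and Dancr -0.15 ± 0.23 and 0.17 ± 0.20, with vehicle and lactate respectively. The snoRNAs themselves are shorter than the reads kept by the authors and were not measured.

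**Figure D3:**
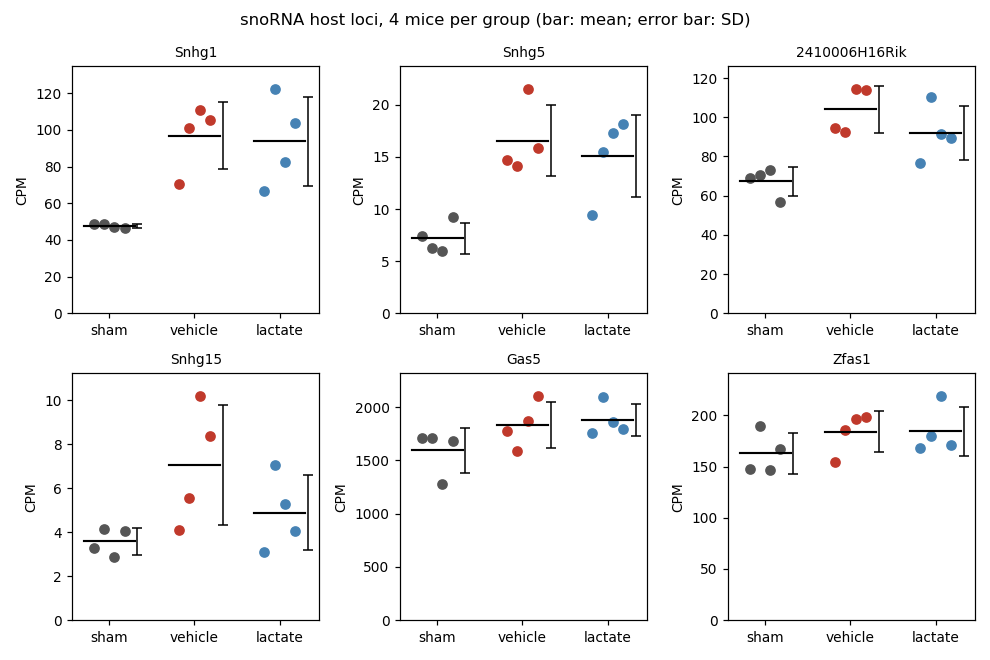
CPM of 6 loci that contain snoRNAs in each mouse, by group; points are mice, horizontal bars means and error bars SD (n = 4), and each panel has its own axis from 0. For Snhg1 the sham mice sat between 46.4 and 48.8 CPM and the ischemic mice between 66.5 and 122 CPM, while Gas5 overlapped between sham and vehicle-treated mice.

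Hosts of miRNAs were called in both directions. Of 12 known loci with an annotated miRNA on their strand and no snoRNA, 11 were tested. With vehicle, Mir9-3hg and 1700016P03Rik were upregulated and C130071C03Rik was downregulated, and with lactate C130071C03Rik and Meg3 were downregulated. Of 11 loci, 2 upregulated and 1 downregulated are 18.2% and 9.09% (background 6.5% and 3.01%), and 0 and 2 with lactate stand beside a background of 11.9% and 5.65%, each share resting on 1 or 2 loci. The median log2 fold change over the 11 loci was -0.02 with vehicle and -0.18 with lactate.

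The 3 loci around the miR-9 genes did not move together. Mir9-3hg (chr7:79500026-79534403) had 33.4, 29.9, 31.6 and 33.1 CPM in sham, 77.7, 56.2, 45.3 and 31.98 CPM in vehicle-treated and 35.3, 41.9, 43.4 and 49.3 CPM in lactate-treated mice, with log2 fold changes of 0.76 ± 0.23 (adjusted p = 0.151) and 0.44 ± 0.13 (adjusted p = 0.0362). All lactate mice lay above all sham mice with a change under the fold limit. The vehicle group was the most spread, from within the sham range to above all other mice, and without vehicle mouse 1, the highest, its log2 fold change was 0.51 and it was no longer called. C130071C03Rik (chr13:83721381-83884194) around Mir9-2 had 31.9, 31.4, 29.5 and 46.1 CPM in sham, 15.9, 23.96, 29.1 and 18.5 CPM in vehicle-treated and 13.1, 17.1, 17.4 and 17.3 CPM in lactate-treated mice. Both ischemic groups lay below all sham mice, by -0.64 ± 0.22 (adjusted p = 0.215) and -1.07 ± 0.17 (adjusted p = 0.00182) on the log2 scale. The value with vehicle was no longer called without sham mouse 4 (-0.46), vehicle mouse 1 (-0.51) or vehicle mouse 4 (-0.56). Gm3764 around Mir9-1, also named after its values were seen, had 28.7, 24.5, 16.3 and 18.1 CPM in sham, 22.3, 22.4, 21.5 and 16.9 CPM in vehicle-treated and 19.2, 20.4, 17.1 and 19.1 CPM in lactate-treated mice, and its values of -0.04 ± 0.20 and -0.18 ± 0.18 did not pass a call. Mature miR-9 was not measured in these long-read libraries. A coding neighbour of C130071C03Rik 54301 bases away, the transcription factor gene Mef2c, had log2 fold changes of 0.01 ± 0.29 (adjusted p = 0.992) and -0.44 ± 0.11 (adjusted p = 0.0191).

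The host of miR-132 and miR-212, miRNAs induced by neuronal activity, is 1700016P03Rik (chr11:75172560-75177633), named here after its values were seen. It had 6.20, 8.69, 9.78 and 16.7 CPM in sham, 15.5, 33.9, 41.1 and 6.46 CPM in vehicle-treated and 3.52, 19.2, 4.22 and 7.42 CPM in lactate-treated mice. Vehicle mice 2 and 3 exceeded all others, vehicle mice 1 and 4 lay within the sham range and lactate mouse 2 was well above the other lactate mice, so the groups overlapped. The log2 fold change was 1.26 ± 0.47 with vehicle (unadjusted p = 0.0184 in edgeR, adjusted p = 0.257), -0.23 ± 0.45 with lactate (adjusted p = 0.792) and -1.51 ± 0.58 between lactate and vehicle (unadjusted p = 0.0243, adjusted p = 0.524). The value with vehicle was not called without sham mouse 1 (1.07), vehicle mouse 2 (1.06) or vehicle mouse 3 (0.89) or with limma voom (1.04), and that between lactate and vehicle was not called without vehicle mouse 2 (-1.30), vehicle mouse 3 (-1.14), lactate mouse 1 (-1.25), lactate mouse 3 (-1.28) or lactate mouse 4 (-1.44).

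Meg3, Rian and Mirg lie in this order on chromosome 12 in the imprinted Dlk1-Dio3 region, from which they are transcribed from the maternal chromosome. Meg3 (chr12:109541001-109571726, plus strand) had 1537, 757, 1074 and 719 CPM in sham, 874, 684, 634 and 651 CPM in vehicle-treated and 486, 586, 505 and 745 CPM in lactate-treated mice. Sham mouse 1 was the highest of all 12, and 3 of the 4 lactate mice lay below every sham mouse. Its log2 fold change was -0.48 ± 0.21 (adjusted p = 0.324) with vehicle and -0.78 ± 0.20 (adjusted p = 0.0234) with lactate, and without sham mouse 1 the latter was -0.53 and under the fold limit. Rian had 950.2, 914, 1181 and 1087 CPM in sham, 1209, 1134, 1122 and 1379 CPM in vehicle-treated and 696, 1042, 973 and 938 CPM in lactate-treated mice, so that all lactate mice lay below all vehicle mice (-0.43 ± 0.13, adjusted p = 0.481), under the fold limit. Mirg, at a mean of 9.27 CPM, had log2 fold changes of -0.02 ± 0.29 and -0.04 ± 0.28. The coding gene Rtl1 between Meg3 and Rian, on the opposite strand, had log2 fold changes of -0.88 ± 0.36 (adjusted p = 0.309) and -0.98 ± 0.38 (adjusted p = 0.113).

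**Figure D4:**
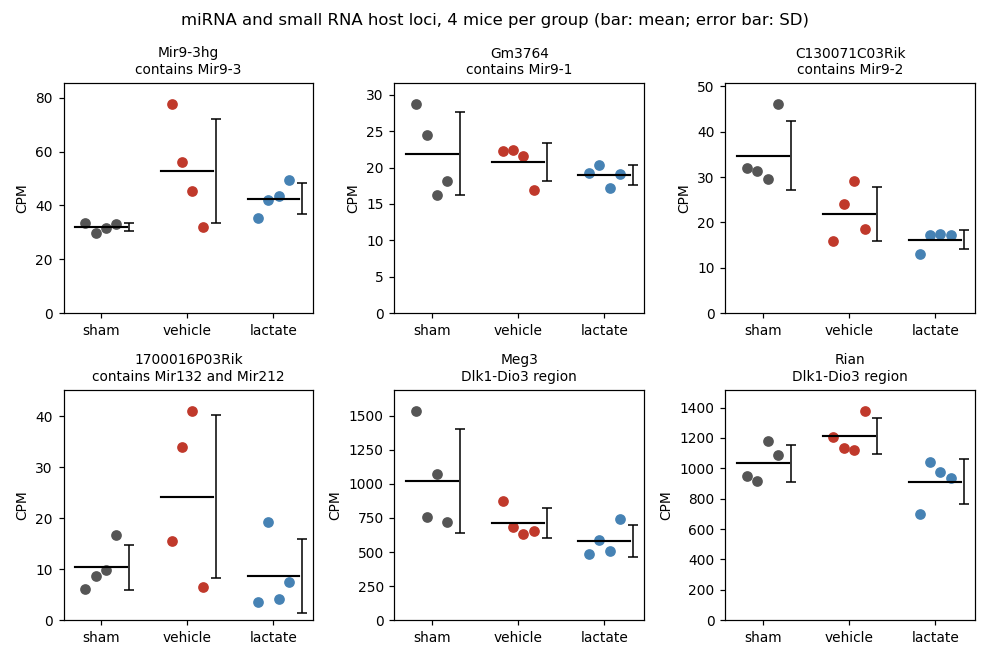
CPM per mouse of the 3 loci around the miR-9 genes, of the host of miR-132 and miR-212, and of Meg3 and Rian; points are mice, horizontal bars means and error bars SD (n = 4), and each panel has its own axis from 0. C130071C03Rik was lower in every ischemic mouse than in every sham mouse, Mir9-3hg was higher in vehicle mice 1 to 3, and Gm3764 overlapped between groups.

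Of the loci outside these host classes, 99 start within 1000 bases of a coding gene on the opposite strand and 85 of them were tested with vehicle, of which 2 were upregulated and 6 downregulated (2.35% and 7.06%, background 6.5% and 3.01%, median log2 fold change -0.14). With lactate 3 of 84 were upregulated and 8 downregulated (3.57% and 9.52%, background 11.9% and 5.65%, median -0.26). Counting hosts too, the log2 fold changes of such a locus and its coding partner had a Pearson r of 0.285 over 90 pairs with vehicle and 0.194 over 88 pairs with lactate, and 49 and 48 of the pairs had the same sign. These pairs share libraries, and the correlation is given as a description. Whether reads were assigned by strand is not given in the sources used here, so that reads of overlapping partners may be mixed.

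A330069E16Rik, which starts 164 bases from the DNA damage recognition gene Ddb2, was the divergent locus with the smallest adjusted p among those upregulated with lactate. It had 7.52, 13.04, 9.91 and 16.5 CPM in sham, 12.9, 18.8, 30.3 and 21.7 CPM in vehicle-treated and 25.2, 54.01, 26.1 and 17.5 CPM in lactate-treated mice, and its log2 fold change was 0.85 ± 0.29 (adjusted p = 0.213) and 1.41 ± 0.32 (adjusted p = 0.0137). Ddb2 itself had -0.19 ± 0.21 and -0.32 ± 0.21 and was not called. The protein text attached to A330069E16Rik stands on 245 rows of the table, so its reads may be shared with related sequences.

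Several divergent loci were downregulated with lactate while their partners were not called. Cep83os, beside the centrosomal gene Cep83, had 24.3, 26.3, 22.5 and 21.7 CPM in sham, 19.9, 15.3, 9.46 and 19.5 CPM in vehicle-treated and 9.87, 10.9, 16.7 and 16.7 CPM in lactate-treated mice (-0.78 ± 0.19 with lactate, adjusted p = 0.016), with all ischemic mice below all sham mice, whereas Cep83 had 0.04 ± 0.23. The next coding gene on the far side of Cep83os, Tmcc3, was upregulated by 2.02 ± 0.26 with vehicle and 1.64 ± 0.27 with lactate (adjusted p = 0.00141 and 0.00203). B230217O12Rik, D330023K18Rik and Gm13446, beside Fam160b1, Gpr107 and Dab2ip, had log2 fold changes with lactate of -0.73 ± 0.20, -0.68 ± 0.18 and -0.98 ± 0.25 (adjusted p = 0.0317, 0.0271 and 0.0223), beside -0.09 ± 0.19, -0.05 ± 0.14 and 0.26 ± 0.17 for the partners. Ggta1, 86307 bases from Gm13446, was upregulated by 1.36 ± 0.39 with vehicle and 1.42 ± 0.34 with lactate (adjusted p = 0.131 and 0.0164). The other coding neighbours, Ablim1, Trub1, Fnbp1 and Ttll11, were not called against sham. 1110020A21Rik, beside the phosphatase gene Ppm1b, fell by 1.22 on the log2 scale with lactate (adjusted p = 0.0303) from 1.67 ± 0.305 to 0.688 ± 0.149 CPM (SD, n = 4). It passed the filter on low values through the sham mice alone, where it was high, and its coding neighbour Slc3a1, 70666 bases away, had a log2 fold change of -1.66 ± 0.41 (adjusted p = 0.0183). Pantr1 had 496 ± 26.6 CPM in sham, 395 ± 72.6 CPM in vehicle-treated and 424 ± 69.95 CPM in lactate-treated mice and was not called, while its partner Pou3f3 was downregulated with lactate (-0.68 ± 0.18, adjusted p = 0.0256).

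Loci between genes were downregulated against sham in 15.9% of tested loci with vehicle (background 3.01%) and 20.0% with lactate (background 5.65%), and shares were not tested between classes. Of 61 intergenic loci, 44 were tested with vehicle, with 0 upregulated and 7 downregulated, and 45 with lactate, with 1 upregulated and 9 downregulated (median log2 fold change -0.08 and -0.37). 4930447M23Rik (chr2:19344317-19351050), between Armc3 and Msrb2, had 36.5, 29.1, 76.7 and 106 CPM in sham, 51.8, 59.3, 25.1 and 49.3 CPM in vehicle-treated and 15.3, 12.7, 23.5 and 23.2 CPM in lactate-treated mice. Every lactate mouse was below every sham and every vehicle mouse, and the log2 fold change was -1.70 ± 0.35 against sham (adjusted p = 0.00827) and -1.34 ± 0.28 against vehicle (unadjusted p = 0.000477 in edgeR, adjusted p = 0.36). Armc3, 34076 bases away and under 2 CPM on average in each group, had a log2 fold change of -1.50 ± 0.63 against sham (adjusted p = 0.143) and -1.35 ± 0.68 against vehicle (adjusted p = 0.591), and Msrb2 0.15 ± 0.17 and -0.07 ± 0.15. Gm48957 (chr15:25415022-25464362), 1258 bases from the neuronal growth cone gene Basp1, had 13.98, 10.3, 15.6 and 13.7 CPM in sham, 5.24, 6.09, 7.10 and 7.04 CPM in vehicle-treated and 7.84, 5.63, 7.52 and 5.91 CPM in lactate-treated mice. It was about equally low in both ischemic groups, at -1.04 ± 0.20 (adjusted p = 0.0242) and -0.96 ± 0.19 (adjusted p = 0.00632), without overlap with sham.

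Other intergenic loci with an adjusted p under 0.05 against sham after lactate were A830009L08Rik (-0.85 ± 0.25), Gm9866 (-0.64 ± 0.18), whose coding neighbour 173631 bases away is the transcription factor gene Sox11 (0.85 ± 0.35, adjusted p = 0.138), and Gm12371 (-1.18 ± 0.33), all downregulated. Of their other coding neighbours, Lingo2, 1219 bases from Gm12371, had -0.69 ± 0.19 (adjusted p = 0.033) and Atg10, 145022 bases from A830009L08Rik, -0.65 ± 0.15 (adjusted p = 0.0157), both downregulated with lactate, while Ssbp2 and Cmpk2 were not called. 1500004A13Rik and Gm1976 had adjusted p values of 0.0181 and 0.00989 with changes under the fold limit (-0.44 ± 0.11 and -0.56 ± 0.12), in both cases without overlap with sham. 2310040G24Rik, another intergenic locus, was downregulated with vehicle (-0.90 ± 0.25, adjusted p = 0.127), from 4.52 ± 0.826 to 2.35 ± 0.246 CPM (SD, n = 4). The only intergenic locus upregulated with lactate was Ifi30, from 1.19, 0.557, 1.49 and 0.617 CPM in sham to 1.76, 3.71, 2.24 and 3.36 CPM in lactate-treated mice (1.57 ± 0.38, adjusted p = 0.0174). The table's own protein and domain texts name this row as the gamma-interferon-inducible lysosomal thiol reductase, an enzyme of antigen processing, so the type of this row and its annotation go against each other. Among 39 loci antisense to a coding gene, 1 of 31 was upregulated and 2 downregulated with vehicle (background 6.5% and 3.01%), and 1 of 30 each with lactate (background 11.9% and 5.65%); AC132106.1, antisense to the transporter gene Slc22a3, had -0.93 ± 0.24 with lactate (adjusted p = 0.0222).

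The largest changes against sham among the lncRNA-typed loci were those of 2 loci without a symbol. ONT.15552, a known locus with a NONCODE identifier, had 5.14, 5.57, 7.47 and 2.84 CPM in sham, 50.9, 60.9, 133 and 125 CPM in vehicle-treated and 62.5, 110.3, 99.4 and 55.5 CPM in lactate-treated mice. ONT.5263, an unmatched locus, had 6.46, 6.47, 6.11 and 5.92 CPM in sham, 61.8, 104, 179.5 and 163 CPM in vehicle-treated and 118, 148, 130.3 and 74.1 CPM in lactate-treated mice. Ischemic and sham mice were separated by a wide gap at both loci. Log2 fold changes were 4.17 ± 0.37 and 3.99 ± 0.28 for ONT.15552 (adjusted p = 3.58e-05 and 1.26e-06) and 4.38 ± 0.31 and 4.26 ± 0.21 for ONT.5263 (adjusted p = 2.04e-05 and 6.66e-08), with -0.19 ± 0.32 and -0.12 ± 0.30 between the ischemic groups.

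Their reads cannot be taken as independent. The table attaches the same protein text to both and to 22 New_gene rows, and 20 of these 24 rows carry a Pfam match to the retroviral matrix protein (MA). All 24 rows were tested and upregulated with adjusted p in both comparisons with sham, and none was called between the ischemic groups. Of these, ONT.8607 and ONT.10291 had 3 to 7 counts in the sham mice, near the limit of detection, and passed the filter on low values through the ischemic mice alone. The other 22 rows had log2 fold changes from 3.44 to 4.54 with vehicle and 3.05 to 4.29 with lactate. Over all 24 rows, log2(CPM + 1) values ran in parallel across the 12 mice, with a median pairwise r of 0.994 and a lowest of 0.933. All 24 rows share the step between sham and ischemic mice, which raises this r. It is given as description and cannot show whether reads are shared. The reads of near-identical repeat copies may be divided among such rows, so the values of the single loci are uncertain, and the 24 rows summed to 88.4, 84.9, 107 and 72.2 CPM in the sham mice, 818, 1079, 2273 and 2048 CPM in the vehicle mice and 1092, 1877, 1414 and 914 CPM in the lactate mice.

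ONT.12686 and ONT.11975, known loci with NONCODE identifiers, were also upregulated in both ischemic groups. ONT.12686 had 7.65, 5.80, 5.57 and 4.44 CPM in sham, 28.6, 15.7, 17.2 and 15.7 CPM in vehicle-treated and 27.6, 23.4, 25.2 and 22.6 CPM in lactate-treated mice (1.76 ± 0.25 and 2.10 ± 0.18, adjusted p = 0.00306 and 6.97e-06). ONT.11975 had 2.90, 2.23, 2.72 and 5.30 CPM in sham, 10.02, 20.1, 30.9 and 13.2 CPM in vehicle-treated and 21.8, 49.9, 31.3 and 12.3 CPM in lactate-treated mice (2.52 ± 0.37 and 3.16 ± 0.40, adjusted p = 0.00376 and 0.000323). Every ischemic mouse was above every sham mouse at both. In lactate-treated mice ONT.15183 (1.35 ± 0.34, adjusted p = 0.02) and ONT.19332 (1.38 ± 0.36, adjusted p = 0.0244) were upregulated and ONT.14206 (-1.58 ± 0.46, adjusted p = 0.0393) and ONT.1918 (-0.87 ± 0.23, adjusted p = 0.0237) downregulated; of these ONT.19332 stayed under 3 CPM in every mouse and passed the filter on low values through the lactate mice alone, where it was high. ONT.21878 was downregulated with vehicle (-0.83 ± 0.25, adjusted p = 0.165).

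Among the unmatched loci, ONT.11706 was the only one downregulated with adjusted p after vehicle. It had 48.1, 36.5, 35.3 and 21.5 CPM in sham, 12.5, 17.2, 8.59 and 9.24 CPM in vehicle-treated and 12.3, 14.4, 10.7 and 13.6 CPM in lactate-treated mice, without overlap between sham and either ischemic group (-1.53 ± 0.27 and -1.43 ± 0.21, adjusted p = 0.0132 and 0.000953). ONT.16604, whose protein text and domains are those of a T-cell receptor beta chain although it is typed as noncoding, had 115, 113, 116 and 83.3 CPM in sham, 90.00, 103, 66.4 and 18.3 CPM in vehicle-treated and 58.6, 26.9, 39.6 and 60.99 CPM in lactate-treated mice. Vehicle mouse 4 was the lowest of all 12 at this locus, and the change with lactate was -1.17 ± 0.22 (adjusted p = 0.00447). ONT.5618, ONT.5820 and ONT.361 were likewise downregulated with lactate (-1.79 ± 0.43, -1.42 ± 0.38 and -0.88 ± 0.26, adjusted p = 0.0174, 0.0257 and 0.0434), the last with overlap between groups. ONT.10366 had 269, 211, 290.2 and 168 CPM in sham, 98.3, 129, 182 and 156 CPM in vehicle-treated and 152, 148, 135 and 253 CPM in lactate-treated mice and was downregulated with vehicle (-0.70 ± 0.20, adjusted p = 0.141).

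ONT.4290 was the most abundant unmatched locus that changed, with 167, 307, 215 and 269 CPM in sham, 232, 202, 430.4 and 307 CPM in vehicle-treated and 524, 485, 396 and 459 CPM in lactate-treated mice. All lactate mice lay above all sham mice (0.98 ± 0.17, adjusted p = 0.00306), and vehicle mouse 3 reached into the lactate range. Its protein text, Chpt1 protein, also stands on ONT.21557 (1.24 ± 0.25 with lactate, adjusted p = 0.0068) and ONT.2965 (0.43 ± 0.21, adjusted p = 0.194) and on 664 rows in all, which makes these counts uncertain in the same way. ONT.11167 had an adjusted p of 0.0255 with lactate and a change under the fold limit (-0.47 ± 0.13). Smaller upregulated loci were ONT.13220 (0.85 ± 0.25 and 0.76 ± 0.15, adjusted p = 0.146 and 0.00571) and ONT.14624 (0.84 ± 0.30 and 1.26 ± 0.31, adjusted p = 0.241 and 0.0177). The most abundant unmatched locus, ONT.14508, had 1584, 2715, 1703 and 1910.2 CPM in sham, 2464, 1469, 2254 and 2725 CPM in vehicle-treated and 2831, 2151, 2471 and 2659 CPM in lactate-treated mice, overlapping between groups (0.20 ± 0.20 and 0.38 ± 0.16, adjusted p = 0.727 and 0.143). Protein texts that stand on more than 10 rows were attached to 86 of the 520 loci, 51 known and 35 unmatched, and Pfam domains to 10.

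**Figure D5:**
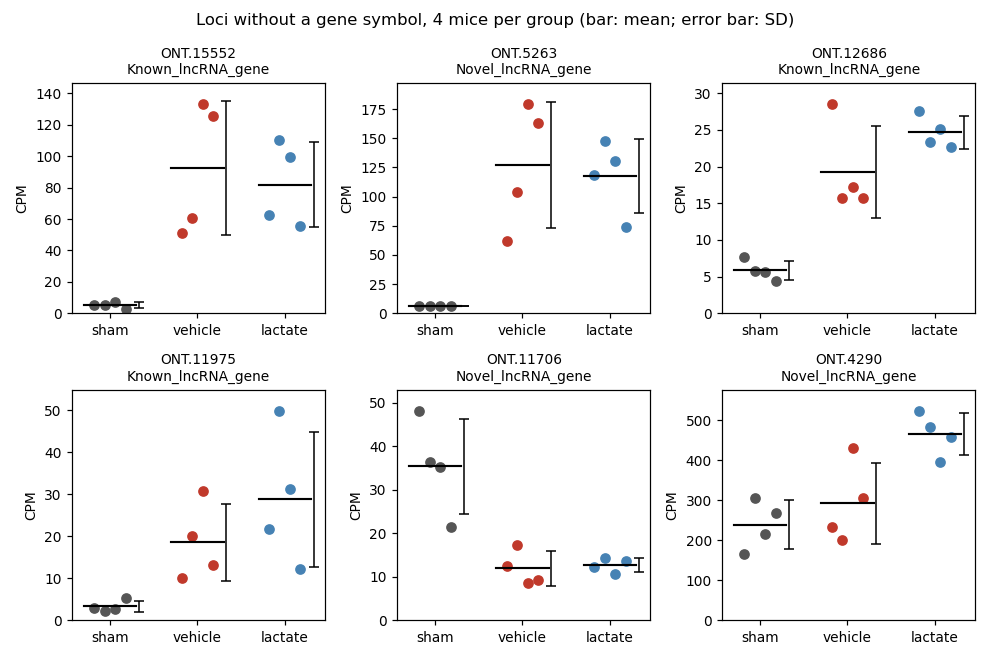
CPM per mouse of 6 loci without a gene symbol; points are mice, horizontal bars means and error bars SD (n = 4), and each panel has its own axis from 0. The sham mice lay at 2.84 to 7.47 CPM for ONT.15552 and 5.92 to 6.47 CPM for ONT.5263, against at least 50.9 and 61.8 CPM in the ischemic mice, ONT.11706 was lower in all ischemic mice, and ONT.4290 was above all sham mice only with lactate.

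What lactate added to ischemia was asked by setting the lactate group against the vehicle group. Of 371 tested loci, 8 were upregulated (2.16%, background 3.76% of 17419 rows) and 21 downregulated (5.66%, background 2.47%), 5 and 17 of them known and 3 and 4 unmatched. Rows typed Known_gene had 1.51% upregulated and 2.75% downregulated and New_gene rows 11.5% and 1.21%. With adjusted p, 0 loci passed in edgeR in either direction (background 0% upregulated and 0.00574% downregulated), and limma voom gave 0 and DESeq2 1, which was 4930447M23Rik. At an unadjusted p under 0.05 in edgeR, whatever the fold, there were 35 loci, 9 of them higher with lactate. The share of all rows at that limit alone was not computed. The median log2 fold change was -0.12 over known and -0.09 over unmatched loci, beside -0.03 over all rows tested.

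The locus with the smallest unadjusted p was 4930447M23Rik, the intergenic locus between Armc3 and Msrb2. 1810026B05Rik, named Chaserr in RefSeq and known for limiting its neighbour, the chromatin remodeller gene Chd2, had 3.69, 5.02, 6.65 and 7.03 CPM in sham, 10.9, 13.9, 19.3 and 7.63 CPM in vehicle-treated and 1.62, 5.03, 5.93 and 7.65 CPM in lactate-treated mice. Vehicle mice lay above all sham mice (1.24 ± 0.30, adjusted p = 0.0702), lactate mice overlapped with sham (-0.11 ± 0.36, adjusted p = 0.882), and the difference between the ischemic groups was -1.36 ± 0.39 (unadjusted p = 0.00464 in edgeR, adjusted p = 0.481). Chd2 was at 19.2 ± 2.67, 18.3 ± 5.32 and 17.4 ± 1.70 CPM in sham, vehicle-treated and lactate-treated mice (SD, n = 4). The annotated span of Chd2 overlaps 1810026B05Rik on the same strand, so reads of this pair may be mixed. Of 5 loci with such a same-strand overlap, 2 were upregulated and 0 downregulated with vehicle (background 6.5% and 3.01%). With lactate 0 and 0 were called against sham (background 11.9% and 5.65%). 2810029C07Rik beside the kinase gene Mark3 (-0.90 ± 0.25), Gm28050 (-1.08 ± 0.35) and ONT.5618 (-1.42 ± 0.42) were downregulated without overlap between the ischemic groups, with adjusted p of 0.481, 0.496 and 0.481. Among the upregulated loci, Gm16062 beside the folliculin gene Flcn (0.98 ± 0.33, with 0.17 ± 0.18 for Flcn), ONT.21557 (0.78 ± 0.24), ONT.4290 (0.65 ± 0.20), ONT.21565 (0.82 ± 0.30) and Rab26os (0.69 ± 0.25) had the smallest unadjusted p, with adjusted p from 0.481 to 0.511. Against sham, Flcn was downregulated with vehicle (-0.66 ± 0.20, adjusted p = 0.171). Eif5, 25565 bases from 2810029C07Rik, was upregulated with vehicle against sham (0.89 ± 0.25, adjusted p = 0.131) and was not called between the ischemic groups.

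Of further lncRNAs with a known name, Miat had -0.24 ± 0.29 with vehicle and -0.00 ± 0.28 with lactate at a mean of 2.74 CPM, 1700020I14Rik (Oip5os1 in RefSeq) -0.04 ± 0.16 and -0.31 ± 0.21 at 52.3 CPM, and Epb41l4aos 0.26 ± 0.18 and 0.35 ± 0.15 at 19.9 CPM. None of the 3 was called in any comparison. Malat1, Neat1 and Tug1 were not analysed here.

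The letters searched in the promoter windows were set beside the calls. A hypoxia response core was held by the windows of 108 of the 176 matched loci (61.4%), against 46.7% of all 27025 genes with a window, a locus counting as soon as any of its windows holds it. Among the loci called with vehicle, 10 of 10 upregulated loci with a window and 5 of 11 downregulated ones held it, and with lactate 6 of 7 and 10 of 17. The windows of the loci upregulated with vehicle were also richer in G and C, with a median of 62.0% against 50.8% in the downregulated ones, 56.3% over the windows of lncRNA-typed loci and 52.7% over all windows, and the part of base composition in the match was not tested. The AP-1 letters TGAGTCA or TGACTCA were in the windows of 0 of the 10 and 0 of the 11 loci and in 4.55% of matched loci, the cyclic AMP core in 2 of 10 and 1 of 11, and AATAAA in 2 of 10 and 2 of 11. With lactate the AP-1 letters were in 0 of 7 upregulated and 0 of 17 downregulated loci, and the cyclic AMP core and AATAAA each in 1 of 7 and 7 of 17, beside 15.9% of matched loci for each and 8.37% and 22.0% of all genes with a window. A match describes letters in a window and not binding of a factor.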

How the data were processed

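Full-length cDNA of mouse brain, amplified with 14 PCR cycles, was sequenced on nanopores, with 1 library per replicate, taken as 1 mouse. The authors kept reads with a quality of at least 7 and at least 500 bases, discarded ribosomal reads, aligned what remained by minimap2, and used pinfish to polish isoforms and gffcompare to match these to annotated transcripts. Submitters' processing notes name the genome build GRCm38 and DESeq 1.10.1, whereas the methods of the paper name another DESeq version. The tool that counted reads per gene, its annotation release and its use of strand are not given in the sources used here. The deposited count of each row is a raw read count per mouse, and the deposited CPM was recomputed and is the count scaled to the mouse's total. Columns of the authors' own comparisons hold fold changes and p-values and were not used. 4 of 31212 lines name no gene and were dropped.

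Rows with at least 1 CPM in at least 4 of the 8 mice compared were tested on counts by edgeR 4.0.16 (R 4.3.3, quasi-likelihood, TMM), with Benjamini-Hochberg adjustment over all rows tested. limma 3.58.1 (voom), DESeq2 1.42.0, other scalings, filters and limits, a replicate block and each mouse left out were the alternatives. Positions came from GENCODE mouse release 21 and sequences from RefSeq. Limits of detection cover counting error only, since PCR reads carry no molecular identifiers.

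Loci were named if they were among the 10 highest of their type, among the 5 smallest p of each direction of a comparison or under an adjusted p of 0.05, or on a list of brain lncRNAs, with their coding neighbours. Snhg15, Gm3764 and 1700016P03Rik were named outside this rule, after their values were seen. Members and lists were chosen with earlier results of these data known. The labels number 4 mice per group without saying how they were housed or processed together, and p-values measure the spread between these mice.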

Additional observations from a re-analysis of the deposited data

Results flagged for a closer look

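In 65 named loci and 3 groups each, 195 groups of 4 mice were examined for a mouse far from the other 3 relative to the group's range, which chance gives in about 1 of 20 groups, and 17 such mice were found. In sham mice they were mouse 2 for A830009L08Rik (12.3 CPM, the others 14.2 to 14.5 CPM), mouse 4 for C130071C03Rik (46.1 CPM) and for ONT.16604 (83.3 CPM), mouse 3 for Gas5 (1277 CPM, the others 1677 to 1712 CPM) and mouse 1 for Mirg (16.7 CPM, the others 6.54 to 7.74 CPM). Among vehicle mice they were mouse 2 for 2310040G24Rik (2.72 CPM) and Dancr (9.45 CPM), mouse 3 for Ifi30 (2.74 CPM) and ONT.21565 (77.2 CPM, the others 33.2 to 35.9 CPM), mouse 1 for ONT.12686 (28.6 CPM) and mouse 4 for ONT.21557 (8.66 CPM). Among lactate mice they were mouse 1 for 2310040G24Rik (4.60 CPM) and C130071C03Rik (13.1 CPM), mouse 4 for Gm1976 (31.7 CPM), ONT.10366 (253 CPM, the others 135 to 152 CPM) and Snhg6 (70.6 CPM), and mouse 2 for ONT.15183 (23.7 CPM).

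At 3 loci every vehicle mouse lay on one side of the sham mean and every lactate mouse on the other. The log2 fold change between lactate and vehicle was -0.90 for 2810029C07Rik, 0.98 for Gm16062 and -1.08 for Gm28050, and the adjusted p of that difference in edgeR was 0.481, 0.496 and 0.496.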

How the results depend on the processing

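The counts of called loci were refitted under RLE size factors, library totals, TMM factors from known genes, other filters, DESeq2, limma voom and a single fit of all 12 mice, and stayed within 1.5 times under each of these. A fold limit of 2 left 13 upregulated and 7 downregulated loci with vehicle (3.38% and 0.846% of all rows tested). It left 14 and 13 with lactate (7.63% and 1.45%), and 0 and 9 between lactate and vehicle (1.41% and 0.735%). Adjusted p in edgeR left 7 and 2 (1.29% and 0.182% of all rows), 14 and 20 (7.88% and 2.52%), and 0 and 0 (0% and 0.00574%). With a replicate block on the mouse number, 5 loci were upregulated between lactate and vehicle in place of 8 and 14 downregulated in place of 21. The shares of all rows tested fell too, to 3.15% upregulated and 1.97% downregulated, in place of 3.76% and 2.47%. Under the same block 23 and 23 loci were called with vehicle (6.23% and 2.98% of all rows) and 23 and 47 with lactate (11.96% and 5.86%). Mice of a number are different animals and share only that number: same-numbered mice had deviations correlated between -0.17 and 0.18, and not every mouse correlated best with its own number.

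When mice were left out one at a time, the vehicle counts ranged from 19 to 30 upregulated and 16 to 29 downregulated. The lowest count of downregulated loci was without sham mouse 4, and 17 were downregulated without sham mouse 1. The shares of all rows ranged from 5.14% to 7.03% and from 2.55% to 3.99%. With lactate they ranged from 17 to 25 and 31 to 52, and between lactate and vehicle from 4 to 12 and 12 to 25, with 4 and 12 without vehicle mouse 2 and 12 downregulated without vehicle mouse 3. Loci with an adjusted p under 0.05 in edgeR, whatever the fold, numbered 9 with vehicle and 39 with lactate. With 1 mouse left out they ranged from 5 to 12 and from 22 to 40. The share of all rows at this limit alone was not computed. Of the named loci, 20 calls were lost in at least 1 of the 17 alternatives other than the fold limit of 2 and the adjusted p, and none changed direction. An adjusted p under 0.05 was also lost in at least 1 of these alternatives at some loci. With vehicle it reached 0.0634 for Snhg5, 0.140 for 2410006H16Rik, 0.106 for Gm48957 and 0.0515 for ONT.11706. With lactate it reached 0.0729 for Meg3, 0.0536 for Ifi30 and 0.188 for AC132106.1, and others also rose above 0.05. 1110020A21Rik and ONT.19332 with lactate could be tested in 13 of the 17 only, since leaving out a mouse of the higher group took them under the filter. A830009L08Rik with vehicle was lost in 6 fits that left out 1 mouse (-0.48 to -0.76), and Ifi30 between lactate and vehicle in 7 alternatives (0.75 to 0.95). ONT.14206 between lactate and vehicle (-0.90 to -1.22) and B230217O12Rik with vehicle (-0.45 to -0.58) were lost in 5 each. Without lactate mouse 2, B230217O12Rik (-0.55), D330023K18Rik (-0.56) and Gm9866 (-0.49, and -0.58 with TMM factors from known genes) were no longer called with lactate, and without vehicle mouse 1 ONT.13220 (0.55) was no longer called with vehicle. Also with vehicle, ONT.10366 was lost without sham mouse 3 (-0.58) or vehicle mouse 1 (-0.55), Rab26os without sham mouse 1 or vehicle mouse 1 (-0.58 each) and ONT.15183 without sham mouse 1 (0.97), sham mouse 2 (1.11) or vehicle mouse 3 (0.65) or with limma voom (0.90). With lactate, Gm16062 was lost without sham mouse 3 (0.63), lactate mouse 2 (0.65) or lactate mouse 4 (0.67). Between lactate and vehicle, Rab26os was lost without lactate mouse 4 (0.47), ONT.4290 without vehicle mouse 1 (0.57) or 2 (0.51) and ONT.21565 without vehicle mouse 2 (0.72) or lactate mouse 2 (0.61). The causes were not tested. Loci near 1 CPM rest on few reads.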
